A study of Rattus norvegicus with 12 samples.

Results

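Single-exon exonic circular RNAs are loops made of 1 exon whose end has been spliced back to its own start. They were described here in liver of diabetic rats that had a sham operation, a sleeve gastrectomy, or a relapse of diabetes after sleeve gastrectomy. Members were the entries of the deposited circRNA table that were classed as exonic and listed with an exon count of 1. This rule used no read count. It gave 949 entries, which described 925 back-splice junctions of the 21068 in the table (4.39%), because 24 junctions were written as 2 entries and were summed. The 925 junctions held 22871 of 284534 back-splice reads (8.04%) and came from 810 host genes.

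All animals were Wistar rats that had eaten a diet with 60% of calories as fat for 4 weeks. Each was then given 35 mg/kg of streptozotocin, which poisons the insulin-making beta cells, after a 16 h fast, and blood glucose above 16.7 mmol/L 3 days later defined diabetes. The sham group had 5 libraries, the sleeve gastrectomy group had 5 libraries taken 3 months after the removal of most of the stomach, and the relapse group had 2 libraries. When the sham and relapse livers were taken is not given in the sources used here. The model combines diet with chemical damage to beta cells, so every group, sham included, carries both. Whether the libraries of a group came from different animals is not stated, so a p-value here measures only the spread among libraries, which may be technical.

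A circRNA forms when the spliceosome joins a downstream donor to an upstream acceptor. With a single exon, the donor and the acceptor belong to the same exon, and long flanking introns with paired repeats are known to bring them together. The closed loop has no free ends, resists exonucleases such as RNase R, and can outlast the linear transcript of its host gene. Single-exon circles of Cdyl, Hipk3, Zfp609 and of the nuclear factor I family are known from several mammals and tissues.

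Depth was low for single junctions: the libraries held 18176 to 37229 back-splice reads, of which 1298 to 3265 were in single-exon junctions. Levels are given in RPM, which scales a count to 1e6 back-splice reads of its library. A count of 0 allowed up to 165 RPM in the smallest library, and such limits and intervals cover counting error only. As a check of the labelled tissue, 8 of 10 hepatocyte marker genes hosted a circle, at 2.11% to 4.0% of a library's reads, with Ttr and Cyp3a2 at 0. Their summed share was 2.75% to 3.96% in the sham libraries, 2.47% to 4.0% in the sleeve gastrectomy libraries and 2.11% to 2.20% in the relapse libraries, and the part of this difference in the results was not tested. The 6 cholangiocyte markers and the 7 pancreas and gut markers were all at 0, and the lymphocyte list had 1 read. The erythroid list had 70 reads, the Kupffer cell list 64, the endothelium list 36 and the stellate cell list 33. None of these lists was above 0.0786% of a library's reads. In bulk tissue, fewer cells of a type and less RNA per cell cannot be told apart.

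Entries that name the host by its symbol list the number of the exon, and 859 junctions had such a number. It comes from the same annotation as the exon count, so it is no separate check of the label "single exon". Another 66 junctions were written only as entries that name the host by an Ensembl identifier, with no exon number. Among these 66, both ends lay within 1 base of a listed intron end in 12, one end did in 30, and neither did in 19. In the remaining 5 the circle spanned the listed intron itself, so the annotation does not bear out a single exon there. The one of these 5 that could be tested was circRNA5901 of EPM2A interacting protein 1, with 3026 bases and 31 reads. None of the 925 junctions also appeared in the table under another class.

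Most single-exon circles were rare. A single library held all reads of 548 junctions (59.2%), 346 were read in 2 to 11 libraries, and 31 were read in all 12. Those 31 carried 76.3% of the single-exon reads. The filter on low counts left 69 of the 925 for testing (7.46%, against 7.21% of all junctions), and these 69 held 84.8% of the reads of the class. The other 856 failed the filter. At the edge of the rule, the 925 junctions with 1 exon had a mean of 24.7 reads and a median of 2, while the 4755 junctions with 2 exons had a mean of 15.6 and a median of 3. The share read in all 12 libraries was 3.35% with 1 exon and 3.45% with 2 exons.

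On average, detected single-exon junctions carried more reads each than circles with more exons. This holds for the mean only: the median over all libraries was 2 reads with 1 exon and 3 with 2 exons. The number of reads per detected junction was 9.58 ± 1.46 (SD, n = 12 libraries) for single-exon circles, 5.40 ± 0.661 for circles of 2 to 4 exons and 3.98 ± 0.442 for circles of 5 or more exons. The single-exon value was higher in 12 of 12 libraries in both comparisons. The difference was 4.17 ± 0.914 against 2 to 4 exons and 5.60 ± 1.09 against 5 or more exons, with a 2-sided exact sign-flip permutation p of 0.000488 in each, which is the smallest that 12 libraries can give (adjusted over the 2 comparisons, 0.000488). The libraries share the same junctions, so this p covers the spread among libraries and not that among junctions. Much of the size of the difference lay in a few circles. Without the 3 most abundant junctions of each class the difference was 0.659 and 2.18 reads, still higher in 12 of 12 libraries (exact p = 0.000488 in each).

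**Figure D1:**
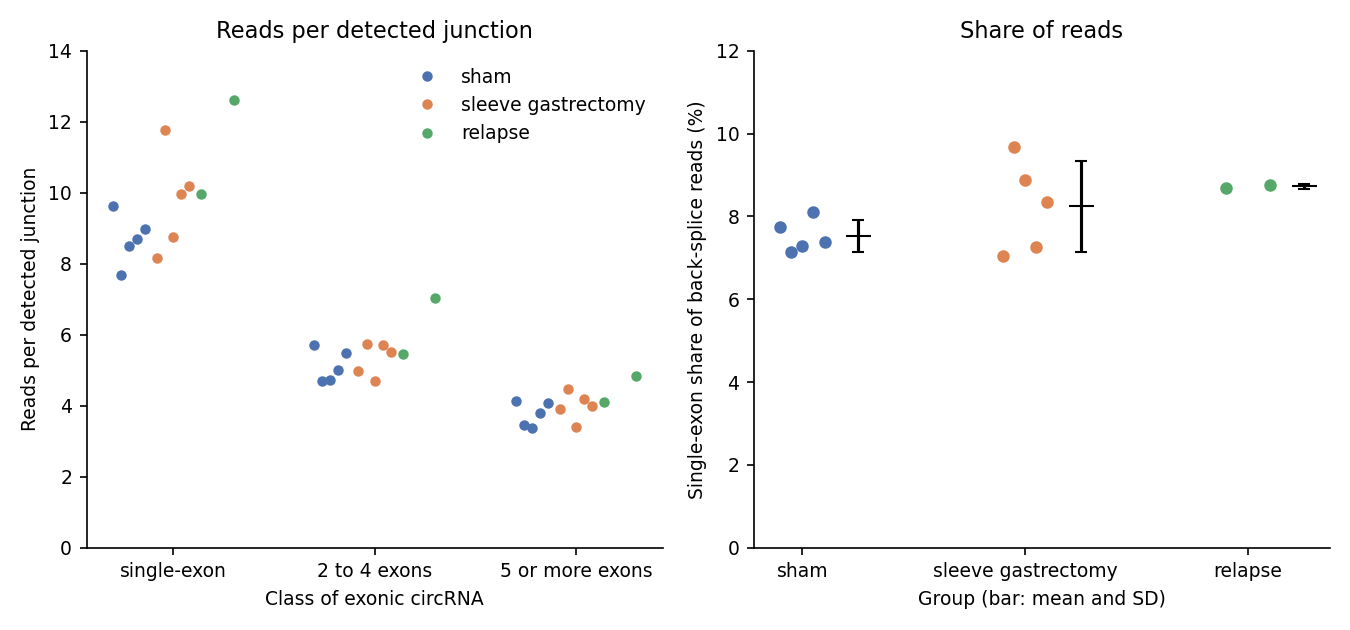
Left, back-splice reads per detected junction (vertical axis) in each of the 12 libraries for exonic circles of 1, 2 to 4, and 5 or more exons, coloured by group. Right, the share of all back-splice reads (%) in single-exon circles in each library, with group mean and SD as bars. On the left, every library has its highest value in the single-exon class, with means of 9.58, 5.40 and 3.98; on the right, the 2 relapse libraries, at 8.68% and 8.77%, lie above all 5 sham libraries and inside the range of the sleeve gastrectomy libraries.

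The reads were concentrated in few hosts. The most abundant junction held 22.7% of all single-exon reads, the top 2 held 35.8% and the top 10 held 61.6%, which was 4.95% of all back-splice reads of the study. The 10 were circles of Nf1x, Cdyl, Lrp6, Pank1, Samd4a, Esrrg, Hdac4, Dnmbp, Hipk3 and Sept9, in order of mean level. Transcription and chromatin regulators made up 4 of these 10, and the first 2 places. Coordinates below are those of the rat build Rnor_6.0, counted from 1.

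Nf1x, nuclear factor I X, encodes a DNA-binding transcription factor of liver, muscle and brain. Its circle circRNA820 is exon 2, 531 bases at chromosome 19, 25886357 to 25886887, minus strand. It had 18601, 14525, 15875, 22013 and 14041 RPM in sham libraries 1 to 5, 13374, 20391, 22383, 16645 and 18250.3 RPM in sleeve gastrectomy and 21599 and 20495 RPM in relapse. Both relapse libraries lay in the upper part of the range of the other groups, and the 3 groups overlapped. Its mean over 12 libraries was 18183 ± 3244 RPM (SD), and it took 99.7% of all back-splice reads of its host. The spread between libraries, a coefficient of variation of 17.8%, was wider than the 4.95% that counting alone gives.

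Cdyl encodes a chromodomain co-repressor that reads methylated histones. Its circle circRNA508 is exon 5, 657 bases at chromosome 17, 29730438 to 29731094, minus strand, and had 10612 ± 2031 RPM (SD, n = 12). Libraries 1 to 5 of sham had 8639, 9573, 9265, 11132 and 8880.0 RPM, those of sleeve gastrectomy 8601, 15871, 11596, 10485 and 12155 RPM, and those of relapse 10935 and 10207 RPM. The highest value was sleeve gastrectomy 2 and the lowest sleeve gastrectomy 1, so that group enclosed the others. Exon 5 as a whole held 16.4% of the reads of junctions with an exon number and 6.40% of those junctions. The circle took 93.9% of its host's reads, and the next circle of the host, of exons 4 to 5, ends at the same donor and had 154 reads.

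Esrrg, an orphan nuclear receptor of oxidative metabolism, gave circRNA118 from exon 2 (415 bases, chromosome 13, 106507147 to 106507561, plus strand). Its mean was 2643 ± 697 RPM in sham (SD, n = 5), 2368 ± 465 in sleeve gastrectomy libraries (n = 5) and 2412 ± 502 in the relapse pair (n = 2). The lowest library was sleeve gastrectomy 4 with 1638 RPM and the highest sham 2 with 3301 RPM. Hdac4, a histone deacetylase that moves between nucleus and cytoplasm, gave circRNA2295 from exon 2 (238 bases, chromosome 9, 99266784 to 99267021, minus strand). Its levels were 2119.9 ± 302 RPM in sham, 2518 ± 848 in sleeve gastrectomy and 2791 ± 42.1 in relapse. Both relapse libraries, with 2761 and 2820.4 RPM, lay above every sham library, and sleeve gastrectomy 2 had 3980.0 RPM against 1802 to 2431 in the other libraries of its group. These circles took 96.4% and 97.3% of the reads of their hosts.

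Signalling genes gave 3 of the 10. Lrp6, a co-receptor of Wnt ligands, gave circRNA1572 from exon 2 (393 bases, chromosome 4, 168296981 to 168297373, minus strand). Sham libraries 1 to 5 had 4799, 3191, 4789, 2607 and 3208 RPM, sleeve gastrectomy libraries 4111, 5257, 3937, 3768 and 3766 RPM, and relapse libraries 5143 and 5883 RPM. Relapse lay above all 5 sham libraries and overlapped sleeve gastrectomy through sleeve gastrectomy 2. Unlike the other 9, this circle did not dominate its host: it took 47.7% of the reads, and a circle of exons 12 to 13, circRNA1571, had the same total of 1222 reads with other values in single libraries.

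Dnmbp, an exchange factor that activates the small GTPase Cdc42 at cell junctions, gave circRNA2198 from exon 13 (332 bases, chromosome 1, 263633066 to 263633397, minus strand). It had 1754, 1540.5, 1457, 2056 and 2232 RPM in sham, 2835, 4078, 3020.3, 2064 and 2602 RPM in sleeve gastrectomy and 3086 and 1961 RPM in relapse. Of the sleeve gastrectomy libraries, 4 lay above every sham library and sleeve gastrectomy 4 lay below the highest sham value. Hipk3, a nuclear protein kinase, gave circRNA1692 from exon 2 (1098 bases, chromosome 3, 94396941 to 94398038, minus strand), the longest of the 10. Its levels were 1468 ± 523 RPM in sham, 1434 ± 229.5 in sleeve gastrectomy and 2062 ± 313 in relapse. Both relapse libraries, with 1841 and 2283 RPM, lay above every sleeve gastrectomy library and overlapped the sham range.

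The remaining 3 hosts act in metabolism, RNA control and the cytoskeleton. Pank1, whose product starts coenzyme A synthesis from pantothenate, gave circRNA2173 from exon 2 (352 bases, chromosome 1, 253147926 to 253148277, minus strand). Sham libraries split into 3 with 3904 to 4700.0 RPM and 2 with 1956 and 1999 RPM, while sleeve gastrectomy libraries had 2910.5 to 4030.1 RPM and relapse libraries 2869 and 3465 RPM. Samd4a, an RNA-binding repressor of translation, gave circRNA646 from exon 3 (518 bases, chromosome 15, 23792825 to 23793342, plus strand). It had 3508, 3411, 3435, 3059 and 4138 RPM in sham, 2363, 3046, 3668, 1409 and 2157 RPM in sleeve gastrectomy and 2436 and 2444 RPM in relapse. Both relapse libraries and 4 of the 5 sleeve gastrectomy libraries lay below every sham library, with sleeve gastrectomy 3 inside the sham range. Sept9, a septin that forms filaments, gave circRNA2551 (639 bases, chromosome 10, 106264856 to 106265494, plus strand), written under an identifier with only 1 end at a listed intron. It had 1437 ± 476 RPM (SD, n = 12), and its highest and lowest libraries, with 2139 and 729 RPM, were both sham.

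**Figure D2:**
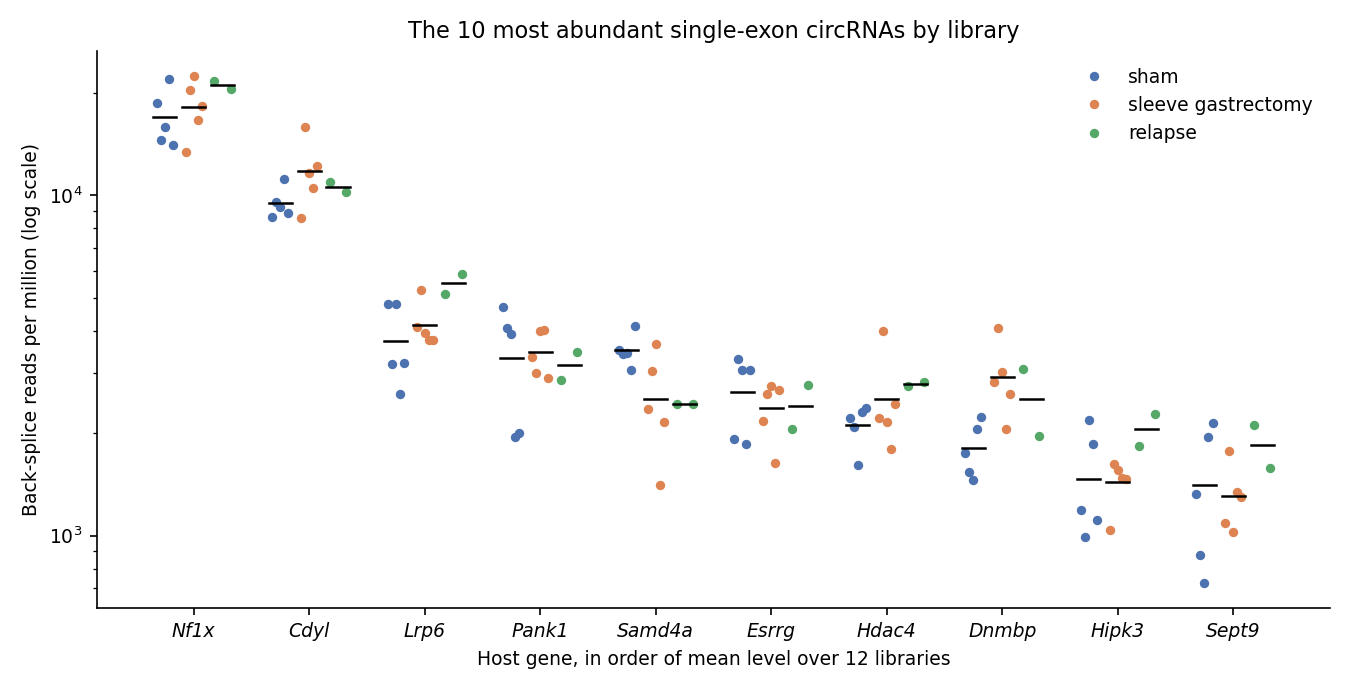
Levels in back-splice RPM (log axis) of the 10 most abundant single-exon circRNAs in each library, coloured by group, with group means as bars. Nf1x and Cdyl stand above the others in all 12 libraries, Samd4a has both relapse libraries below all sham libraries, and the groups overlap in most hosts.

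The order of levels was clear only at the top. Every library had more reads of Nf1x than of Cdyl, and more of Cdyl than of any of the other 8. From Lrp6 down, neighbouring hosts differed by less than the larger of their SDs over libraries: 4205 ± 979 RPM for Lrp6, 3354 ± 845 for Pank1, 2923 ± 773 for Samd4a, 2489.7 ± 544 for Esrrg, 2398 ± 604 for Hdac4, 2391 ± 763 for Dnmbp, 1553 ± 429 for Hipk3 and 1437 ± 476 for Sept9. One exception was the step from Dnmbp to Hipk3, 2391 against 1553 RPM, which was above both SDs.

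Exon 2 was the most frequent source. Among the 859 junctions with an exon number, 264 (30.7%) were exon 2, and these held 63.4% of the reads. In circles of 2 to 4 exons, exon 2 was the first exon in 20.9% of junctions and 33.7% of reads, and in circles of 5 or more exons in 23.3% and 30.6%. Single libraries gave 59.9% to 67.3% of single-exon reads from exon 2 and 32.1% to 34.9% for circles of 2 to 4 exons, so the ranges did not overlap. Without the 2 most abundant junctions the single-exon share of reads was 63.5%.

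The share was larger among junctions with more reads, given here as a description. Exon 2 made up 83 of 326 junctions with a single read (25.5%) and 53 of 101 with at least 15 reads (52.5%), where circles of 2 to 4 exons had 18.1% and 29.0%. Of the 59 tested junctions with an exon number, 36 (61.0%) were exon 2. An acceptor is needed for back-splicing and the first exon of a transcript has none, and only 4 junctions were listed as exon 1. The most read of these was circRNA3724 of Lin54, a DNA-binding subunit of a cell-cycle repressor complex, with 41 reads. The others were RF00092 with 3 reads, Lats2 with 1 read and Eef1a1 with 1 read. The highest exon number was 100.

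**Figure D3:**
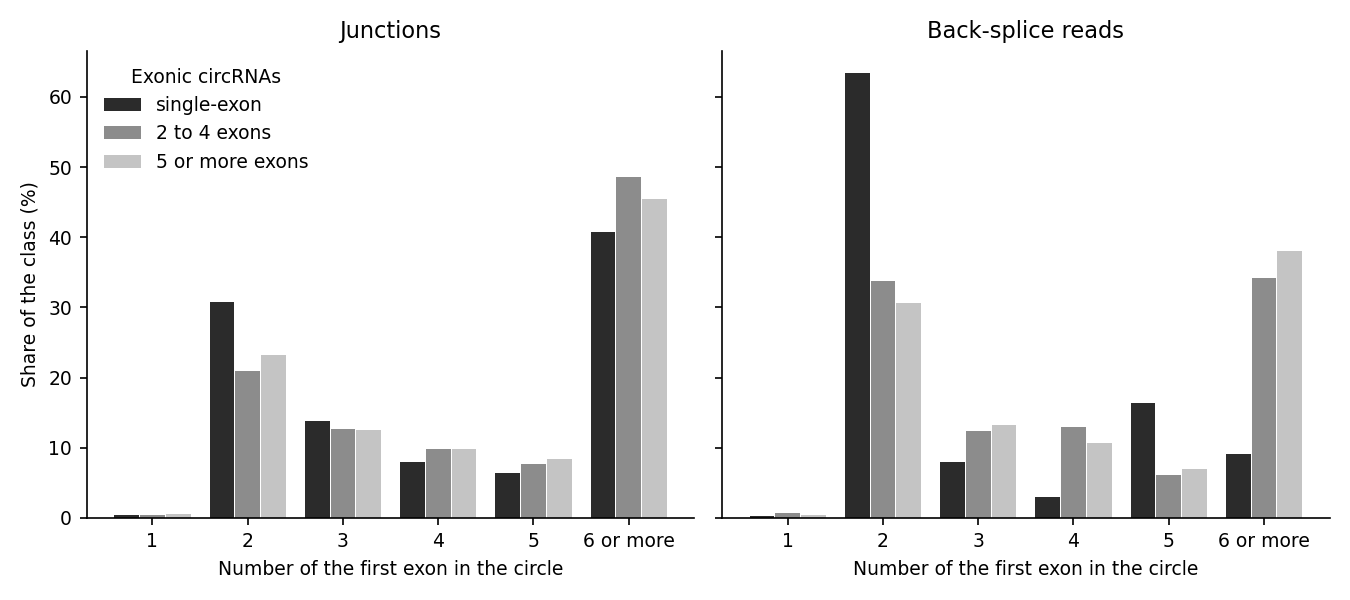
Share (%) of junctions (left) and of back-splice reads (right) by the number of the first exon in the circle, for exonic circles of 1, 2 to 4, and 5 or more exons. Exon 2 holds 30.7% of single-exon junctions and 63.4% of their reads, and exon 5, the exon of the Cdyl circle, holds 16.4% of the reads.

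Single-exon circles were 100 to 5786 bases long, with a median of 249 and quartiles of 176 and 502. Rare circles were short: the median was 213.5 bases for junctions read in 1 library, 348 for those in 2 to 11 libraries and 518 for those in all 12. Circles under 200 bases gave 333 junctions (36.0%) but 4.35% of reads and 4 tested junctions. Circles of 400 to under 800 bases gave 188 junctions and 56.2% of reads, among them Nf1x, Cdyl and Samd4a. The median length was 368.5 bases for exon 2 and 216 for exon 3 or later. Over all 925 junctions length and mean RPM had a Spearman rho of 0.31, and over the 69 tested 0.086. These are descriptions across junctions that share libraries and depth.

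The tested circles ran from 151 bases in Pabpn1, which binds poly(A) tails in the nucleus, to 3121 bases in the gene of serine and arginine rich splicing factor 1. The latter circle was written under an identifier, with neither end at a listed intron. The longest circle read in all 12 libraries was circRNA1513 of Tet3, an enzyme that oxidises methylcytosine, with 2154 bases from exon 4 and 72 reads. A length that is a multiple of 3, which lets a reading frame run on around the circle in phase, was found in 298 of 925 junctions (32.2%) and in 16 of the 31 read in all libraries (51.6%).

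**Figure D4:**
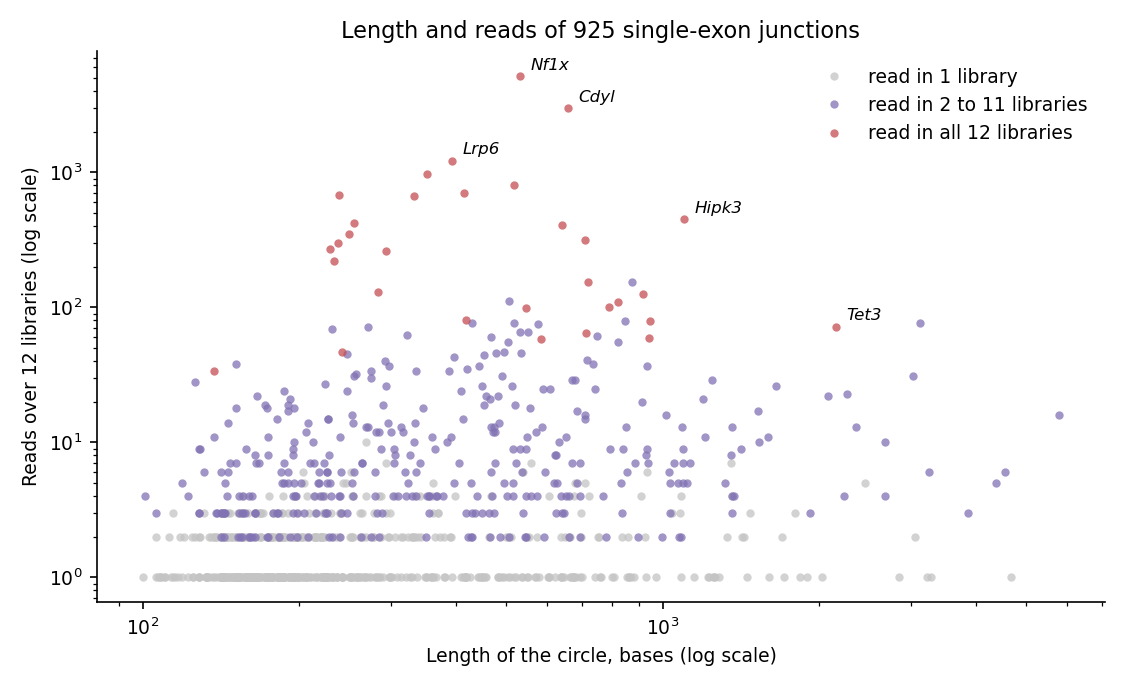
Length of the circle (bases, log axis) against reads summed over 12 libraries (log axis) for the 925 single-exon junctions, coloured by the number of libraries with reads. The 31 junctions read in all 12 libraries have a median of 518 bases, and Tet3, at 2154 bases, is the longest of them.

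Abundant single-exon circles were mostly the main circle of their host. The filter keeps junctions with many reads, so this is a description of those that passed it. Among the 69 tested, 58 (84.1%) were the most read circle of the host, against 363 of all 925 (39.2%), and the median share of the host's reads was 81.8%. The share was over 90% in 27 and under 10% in 6. Tested circles shared their acceptor with another circle in 35 cases and their donor in 14, and 42 shared at least one end. Klf12, a zinc finger repressor, was one of those in the minority: its exon 4 circle had 99 reads and 25.3% of the host's reads, below a circle of exons 2 to 3 with 122 reads.

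Of the 810 hosts, 719 had 1 single-exon circle, 72 had 2 and 19 had 3 or more, and 207 (25.6%) had no other circle of any class. Hosts with many single-exon circles included metabolic genes of hepatocytes, each with few reads. Pck1, the rate-controlling enzyme of gluconeogenesis, had 5 single-exon junctions with 22 reads in all, and Dpyd, which starts pyrimidine breakdown, had 5 with 11 reads. C3, the central complement protein, had 3 with 27 reads. Cyp2c7, a cytochrome P450 with 5298 back-splice reads in all classes, had 3 single-exon junctions with 5 reads. Pck1, Dpyd, C3 and Cyp2c7 had many circles of all classes, with 31, 49, 33 and 21 junctions. Chromatin regulators were also among the 19 hosts, with 4 single-exon junctions in Smarca2 and 3 each in Bptf and Ash1l. All hosts named here were chosen after their counts were seen.

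Grouped by host function, the 2 lists with the most single-exon reads, apart from the hosts known to form circles in several mammals, were those of transcription and chromatin. The list of transcription factors had 36 junctions with 5983 reads (26.2% of single-exon reads) and chromatin regulators had 38 with 4354 reads (19.0%). Each rested on 1 circle: Nf1x had 5188 of the former reads and Cdyl 3003 of the latter. The median junction had 3.5 and 4 reads in these lists, 4 in the list of glucose, glycogen and insulin genes and 2 over all single-exon junctions. Protein and lipid kinases had 25 junctions with 843 reads (3.69%), small GTPase regulators 19 with 731 reads (3.20%), and RNA-binding and splicing genes 22 with 127 reads (0.555%). The list of ubiquitin ligases and deubiquitinases had 20 junctions with 72 reads, and none of these was tested. Spsb4, an adaptor of a ubiquitin ligase outside that list, was tested, with 79 reads. Lists may share genes and are not complete, so each share is that of a list and not of a whole function. Samd4a with 806 reads in its main circle, Esrrg with 699 and Evi5 with 270 were in no list.

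By these lists, liver metabolism was present by number and low in total reads, and Pank1, with 969 reads, was in none of them. The median junction was not low, with 1 to 4 reads in the metabolic lists against 2 over all single-exon junctions. Drug, steroid and bile acid enzymes had 17 junctions with 89 reads (0.389%), secreted plasma proteins and complement 21 with 92 reads (0.402%), amino acid and urea cycle genes 11 with 60 reads (0.262%), and glucose, glycogen and insulin genes 13 with 172 reads (0.752%). Genes of fatty acids, cholesterol and lipoproteins had 20 junctions with 1270.0 reads (5.55%), of which 1222 were the circle of Lrp6, listed there as a lipoprotein receptor relative. Hosts known to form circles in several mammals had 23 junctions with 8888 reads (38.9%), led by Nf1x, Cdyl and Hipk3.

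The share of a library's reads in single-exon circles was compared between groups first, since it needs no single junction. Sham libraries 1 to 5 had 7.74%, 7.14%, 7.29%, 8.11% and 7.38%, sleeve gastrectomy libraries 7.06%, 9.66%, 8.88%, 7.25% and 8.34%, and relapse libraries 8.68% and 8.77%. Both relapse libraries lay above all sham libraries, and the sleeve gastrectomy libraries spread across the range of both. Relapse exceeded sham by 1.19 percentage points (8.73 ± 0.0616, n = 2, against 7.53 ± 0.392, n = 5; 2-sided exact permutation p = 0.0476, the smallest these groups can give, adjusted p = 0.143 over 3 comparisons). Sleeve gastrectomy (8.24 ± 1.10, n = 5) and sham differed by 0.706 points (exact permutation p = 0.230, adjusted p = 0.345), and relapse and sleeve gastrectomy by 0.486 points (exact permutation p = 0.714, adjusted p = 0.714). No comparison passed after adjustment. The value of sleeve gastrectomy against sham was 0.350 without sleeve gastrectomy 2, and that of relapse against sleeve gastrectomy was 0.190 without sleeve gastrectomy 1, 0.240 without sleeve gastrectomy 4 and 0.842 without sleeve gastrectomy 2.

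Sleeve gastrectomy was compared with sham to ask which single-exon circles go with the operation in diabetic liver. The circle with the smallest p was that of Dnmbp, and 0 of the 69 tested members passed a false discovery rate of 0.05 in edgeR. Over all 1519 junctions tested, 0% were called, and DESeq2 and limma-voom also called 0 members. At an unadjusted p under 0.05 edgeR gave 4 members of 69, against 59 of 1519 junctions (3.88%). The median log2 difference of the 69 was 0.17, with 39 higher, and that of all 1519 was -0.01, with 753 higher. The members' median was 0.06 without sleeve gastrectomy 2, 0.09 without sleeve gastrectomy 5 and 0.08 in a fit of these 2 groups alone, each over the members that then passed the filter (62, 67 and 34).

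Dnmbp had 1808 ± 331 RPM in the sham libraries and 2920.1 ± 740.3 in the sleeve gastrectomy libraries (SD, n = 5 each), a log2 difference of 0.69 (SE 0.25) in edgeR with an adjusted p of 0.926, and 5 of 5 sleeve gastrectomy libraries lay above the sham mean. Samd4a had 3510.3 ± 392 and 2529 ± 864 RPM, a log2 difference of -0.48 (SE 0.24). Cdyl had 9498 ± 981 and 11742 ± 2678 RPM, a log2 difference of 0.32 (SE 0.17), which was 0.21 without sleeve gastrectomy 2. The circle of serine/threonine kinase 35, circRNA2869, had 11, 1, 5, 2 and 10 reads in sham and 4, 0, 0, 5 and 0 after sleeve gastrectomy, a log2 difference of -1.69 (SE 0.92). Adjusted p in edgeR was 0.996 for these last 3, so none of the differences passed.

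Cyp2c13, a cytochrome P450 of rat liver, had 0 reads in all 5 sham libraries and 0, 6, 0, 7 and 0 in the sleeve gastrectomy libraries. Against a floor of 3 reads over the sham group this is 3.95-fold higher, without the counting error of the sleeve gastrectomy reads. The circle passed the filter only through the groups in which it was read, so this fold is a description. This single-exon circle took 2.50% of the reads of the host and was not read in 3 of the sleeve gastrectomy libraries. The next circles by p were Gucy1a2, a subunit of soluble guanylate cyclase, with a log2 difference of 0.61, Zfyve1, a lipid-binding protein of the endoplasmic reticulum, with 1.16, Evi5, which regulates Rab GTPases, with 0.38, and Trim14, an adaptor of antiviral signalling, with 0.45. These moved with single libraries: Evi5 was at 0.18 without sleeve gastrectomy 2, and Trim14 at 0.23 without sleeve gastrectomy 3, 0.28 without sham 3, and 0.68 without sleeve gastrectomy 1. Of the 12 sham reads of Zfyve1, 10 were in sham 5.

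Relapse was compared with sleeve gastrectomy to ask what differs where diabetes returned after the same operation. In edgeR 0 of 69 members passed, against 0% of 1519 junctions, and DESeq2 and limma-voom called 0 members. An unadjusted p under 0.05 was reached by 4 members, against 73 of 1519 junctions (4.81%). The median log2 difference was -0.05 over the members, with 29 higher, and -0.07 over all 1519, with 713 higher. The members' median changed sign with single libraries. Without relapse 2 the median was -0.42 over 94 members that then passed the filter and -0.61 over all junctions. Without relapse 1 it was 0.09 over 93 members and -0.07 over all junctions, and without sleeve gastrectomy 2 or 5 it was 0.02 or 0.01 over the members. With limma-voom it was 0.04. The smallest adjusted p of a member in edgeR was 0.981.

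The single-exon circle of Slc16a10, a transporter of aromatic amino acids, had 0 reads in both relapse libraries and 3, 0, 3, 5 and 10 in the sleeve gastrectomy libraries. It is a minor circle of its host, with 44 reads in all against 1552 of a circle of exons 2 to 3 with the same donor. With 3 reads set over the relapse group the single-exon circle was 3.26-fold lower in relapse, without the counting error of the sleeve gastrectomy reads. It passed the filter only through the other groups, so this fold is a description. Trim14 had 8, 29, 32, 27 and 21 reads after sleeve gastrectomy and 6 and 19 in relapse, a log2 difference of -1.21 (SE 0.54), which was -1.83 without relapse 2. The kinase 35 circle had 6 and 17 reads in relapse, a log2 difference of 2.34 (SE 1.07) from the 9 reads after sleeve gastrectomy. Spsb4, an adaptor of a ubiquitin ligase, differed by -2.42 (SE 1.12), with 0 and 3 reads in relapse. Kif26b, a kinesin family member, had 9, 2, 6, 5 and 7 reads after sleeve gastrectomy and 0 and 2 in relapse. Among the abundant circles, Hipk3 differed by 0.53 (SE 0.36) and Lrp6 by 0.41 (SE 0.28). Without relapse 2 these were 0.14 and 0.09, and with the replicate number as a block Lrp6 was at 0.27. The others named by p were RGD1310352 with 1.49, Pabpn1 with 1.93 and Insr with -1.56 on the log2 scale. Without relapse 1 they were 0.44, 0.31 and -0.80, and with the block RGD1310352 was at 2.34. In relapse 1 the Insr circle had 0 reads. None of these differences passed in edgeR.

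The comparison of relapse with sham shares the sham libraries with the first comparison and the relapse libraries with the second, so the 3 sets of values are not independent. Again 0 of 69 members passed in edgeR, against 0% of 1519 junctions, and DESeq2 called 0. In limma-voom 1 of 1519 junctions was called (0.0658%), and it was not a member. An unadjusted p under 0.05 in edgeR was reached by 6 members, against 88 of 1519 junctions (5.79%). The median log2 difference was 0.18 over the members, with 40 higher, and -0.04 over all 1519, with 723 higher. Without relapse 2 the members' median was -0.10 over the 94 members that then passed the filter, and that of all 2087 junctions was -0.63. The members' median thus changed sign with that library, and lay above that of all junctions with and without it. It was 0.05 without sham 4 and 0.01 with the replicate number as a block. With junctions without reads in a group set to 3 reads over that group, the members' median was 0.18 here and 0.17 and -0.05 in the other comparisons.

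The single-exon circle of Cyp2c13 had 6 and 5 reads in the relapse libraries and 0 in sham. That of Slc16a10, minor beside the host's circle of 1552 reads, had 0 reads in relapse and 9, 9, 5, 0 and 0 in sham. With 3 reads set over the group at 0, these were 7.18-fold higher and 3.92-fold lower in relapse. Each circle passed the filter only through the groups in which it was read, so these folds are a description. The counting error of the other group's reads is not in these folds. Spsb4 had 11, 8, 7, 12 and 4 reads in sham and 0 and 3 in relapse, a log2 difference of -2.81 (SE 1.12, adjusted p = 0.706 in edgeR, lower in 2 of 2 relapse libraries). It was the only circle of its host. RGD1310352, likewise the only circle of its host, had 13, 0, 7, 5 and 6 reads in sham and 27 and 15 in relapse, a log2 difference of 1.68 (SE 0.75). Its relapse level rested mainly on relapse 1, the smaller library, and the log2 difference was 0.65 without it.

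Lrp6 had 3719 ± 1011 RPM in sham and 5513 ± 523 in relapse (SD, n = 5 and 2), a log2 difference of 0.58 (SE 0.28, adjusted p = 0.839 in edgeR), with no overlap between the groups. Without relapse 2 the log2 difference was 0.27. Tead1, the DNA-binding partner of the Hippo pathway's co-activators, had 38, 13, 23, 28 and 29 reads in sham and 23 and 98 in relapse, a log2 difference of 0.76 (SE 0.37). This value rested on relapse 2: without it the log2 difference was -0.12. Samd4a differed by -0.51 (SE 0.32), Gab1, a docking adaptor of receptor tyrosine kinases, by 0.76 (SE 0.43) and Nudcd3, a co-chaperone, by 1.77 (SE 0.96). Gab1 was at 0.48 without relapse 2 and Nudcd3 at 0.70 without relapse 1.

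**Figure D5:**
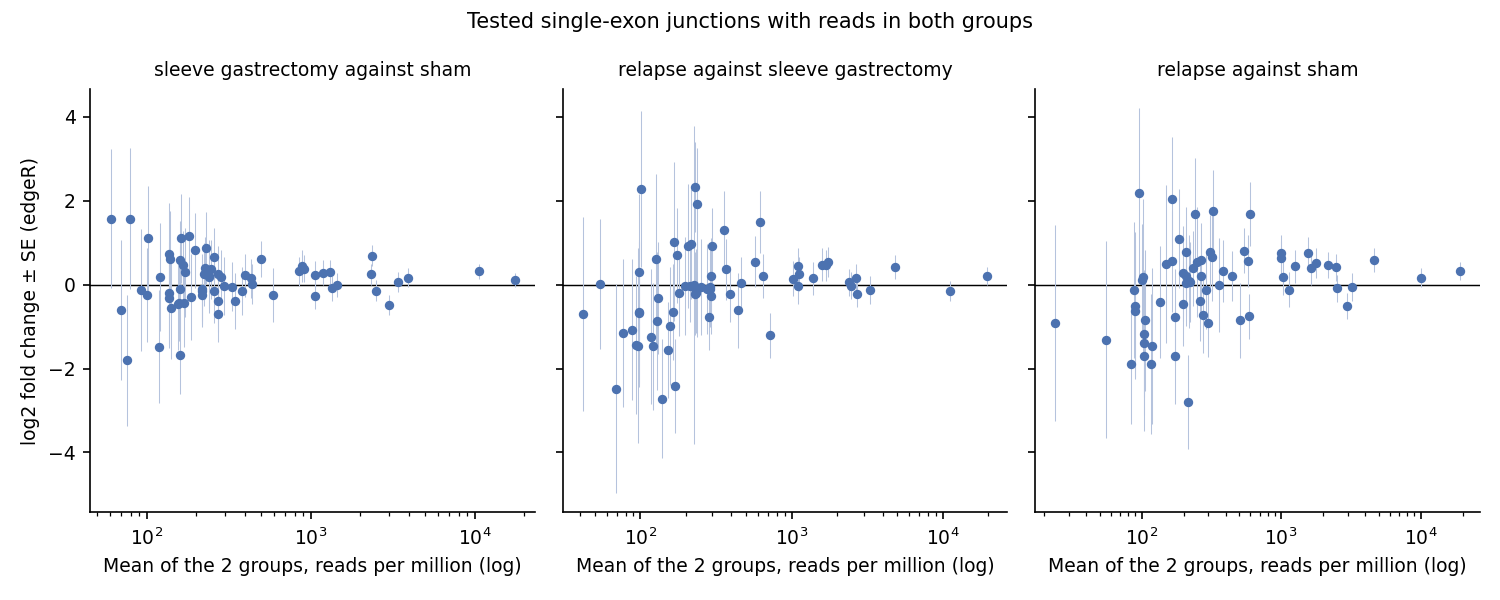
Fitted log2 difference from edgeR (vertical axis) against the mean level of the groups compared in RPM (log axis). Bars are an SE derived from the F statistic of the test, which is unreliable where the difference is near 0. Points are tested single-exon junctions with reads in both groups, in the 3 comparisons. Differences are small and have short error bars at high levels, such as those of Nf1x, and spread widely with long error bars at low levels; no point passed the false discovery rate of 0.05.

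By function, no list held a member called by edgeR in any comparison, as 0 of all 1519 junctions were. The 8 tested circles of chromatin regulators (Cdyl, Hdac4, Crebbp, Tet3, Cdyl2, Bptf, Ash1l and Rere) had a median log2 difference of 0.24 for sleeve gastrectomy against sham, with 5 of 8 higher, and of 0.18 for relapse against sham, with 6 of 8 higher. The 5 in the list of transcription factors (Nf1x, Tead1, Klf12, Smad1 and Nfib) had medians of 0.20 and 0.32, with 4 of 5 higher in each. Esrrg, a nuclear receptor outside that list, went the other way, with -0.14 and -0.09. The 5 in the list of kinases (Hipk3, Prkd3, Acvr1, Insr and Pik3r1) had -0.01 and 0.20, with 2 and 4 higher. The circle of serine/threonine kinase 35, outside that list, had -1.69 and 0.65. For relapse against sleeve gastrectomy the medians were -0.03 for chromatin regulators, 0.21 for transcription factors and 0.05 for kinases, with 3 higher in each. Over all 69 tested single-exon circles the median against sham was 0.17 after the operation and 0.18 in relapse, and relapse against sleeve gastrectomy had -0.05. Over all 1519 junctions these were -0.01, -0.04 and -0.07.

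Insulin signalling had 2 tested circles. Insr, the insulin receptor, gave circRNA3122 from exon 2 with 7, 5, 5, 7 and 6 reads in sham, 8, 2, 0, 8 and 13 in sleeve gastrectomy and 0 and 5 in relapse. It took 28.9% of the host's reads. Pik3r1, the regulatory subunit of phosphoinositide 3-kinase, gave circRNA1785 from exon 2 with 4, 6, 2, 1 and 8 reads in sham, 4, 9, 2, 10 and 6 in sleeve gastrectomy and 3 and 10 in relapse. At these counts, differences between the groups were not detectable for either.

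Other circles that the naming rule chose from the lists also overlapped between groups. Crebbp, a histone acetyltransferase and co-activator, had 989 ± 126 RPM in the sham libraries, 1141 ± 485 in the sleeve gastrectomy libraries and 1063 ± 738 in the relapse libraries (SD, n = 5, 5 and 2). Klf12 had 399 ± 160.3, 368 ± 352 and 202 ± 56.1 RPM. Prkd3, a protein kinase D, had 414 ± 153, 450.0 ± 111 and 472 ± 21.6 RPM, with a coefficient of variation over 12 libraries of 26.5%, below the 31.7% that counting alone gives. Acvr1, a receptor of bone morphogenetic proteins, had 71 reads in 11 libraries, and Cnot1, the scaffold of the deadenylase complex, had 34 reads in 10. Zfp609, named after its values were seen because its circle is known from muscle, had 155 reads in 11 libraries and 0 in sleeve gastrectomy 2.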

How the data were processed

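Libraries of rat liver RNA, depleted of ribosomal RNA and digested with RNase R, were sequenced by the submitters. The submitters' processing notes name cutadapt 1.9, FastQC, TopHat2 2.0.10 and the genome build Rnor_6.0; the back-splice caller is not given in the sources used here. Deposited by the authors were count columns with whole numbers of back-splice reads, and all of these columns matched a sample (0 did not). The normalised score that the authors deposited beside each count, SRPBM, was not used. Entries of 1 junction were summed: the start of an entry named by symbol lies 1 base before that of its identifier entry. Identifiers got host names through symbol entries (63 of 90), an NCBI gene number (2) or the table's description (22), and 3 had none. RPM are counts scaled to 1e6 back-splice reads of the library.

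All 1519 junctions with enough reads (filterByExpr, minimum count 5, minimum total 15) were fitted together in edgeR 4.0.16 (R 4.3.3) with TMM, a mean for each of 3 groups and its quasi-likelihood test, adjusted over all junctions by the Benjamini-Hochberg method. DESeq2 1.42.0 and limma-voom (limma 3.58.1) were alternatives, besides other filters and scalings, entries as deposited, a replicate block and leaving out each library. The scripts were tested on simulated data. Shares and reads per junction were compared with exact permutation tests over libraries in scipy 1.17.1. Library sizes of 18176 to 37229 reads limit precision. Named circles were the 10 most abundant, the 10 with the smallest p in each comparison, up to 3 tested per host list, and the longest and shortest tested; 1 of these is not reported here. Members and lists were chosen with earlier results of these data known. Sequences of the circles were not used here, since no genome of build Rnor_6.0 was analysed.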

Additional observations from a re-analysis of the deposited data

Results flagged for a closer look

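In 44 groups of 5 libraries, made from the shares and the levels of the most abundant circles, 3 values stood apart from the other 4 libraries of their group by more than the 95% critical gap of Dixon's test. Chance gives about 1 in 20 such groups. The circle of Lrp6 had 5257 RPM in sleeve gastrectomy 2, where the other 4 libraries had 3766 to 4111 RPM. The circle of Hdac4 had 3980.0 RPM in sleeve gastrectomy 2, where the others had 1802 to 2431 RPM. The circle of Hipk3 had 1039.6 RPM in sleeve gastrectomy 1, where the others had 1472 to 1621 RPM.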

How the results depend on the processing

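No member passed a false discovery rate of 0.05 in the alternatives run, of which sleeve gastrectomy against sham had 19 and each comparison with relapse had 16, DESeq2 and limma-voom included. The smallest adjusted p of a member ranged from 0.390 to 1 in the first, from 0.201 to 1 against sleeve gastrectomy and from 0.290 to 1 for relapse against sham. Without the filter, 0 of 21068 junctions were called for sleeve gastrectomy against sham. For relapse, 2 were called against sleeve gastrectomy and 1 against sham, none of them a member. Leaving out each sham or sleeve gastrectomy library in turn gave 0 called members, and 0 called junctions of any class, in each comparison. Leaving out any library in turn moved the share difference of sleeve gastrectomy against sham between 0.350 and 1.0 percentage points. That of relapse against sham lay between 1.09 and 1.34, and that of relapse against sleeve gastrectomy between 0.190 and 0.842. The same step moved the difference in reads per detected junction between 4.01 and 4.28 against 2 to 4 exons and between 5.40 and 5.72 against 5 or more exons. One named value changed sign: Tead1 in relapse against sham was -0.12 without relapse 2 and 1.25 without relapse 1. With the replicate number as a block, 0 members were called in each comparison (smallest adjusted p in edgeR 0.996, 1 and 1). Same-numbered libraries did not deviate together: correlations were -0.0961 to 0.0237 for sleeve gastrectomy against sham, and the best match had the same number in 0 of 9 cases. Levels in RPM depend on the denominator: with symbol entries alone the Nf1x circle had 25356 RPM, and scaled to exonic reads 21730. These 2 denominators were chosen after seeing the data. With 2 relapse libraries and a median of 2 reads per junction, differences in most members were not detectable.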
